A study of Mus musculus with 6 samples.

Results

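Aminoacyl-tRNA synthetases join each amino acid to its tRNA. Their genes were examined in 32D cells, an immortal myeloid progenitor line derived from mouse marrow and dependent on interleukin-3. The set was chosen by name, as the genes of 20 cytosolic and 16 mitochondrial synthetases, and each probe set annotated to 1 of them was taken. Of these 36 genes, 35 had an annotated probe set, out of 18195 genes with a probe set in all, and they held 72 probe sets. Dars, the cytosolic enzyme for aspartate, had none in the annotation and was not analysed here.

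The cells of 1 group had been transduced with Nup98::Nsd1, a fusion found in acute myeloid leukaemia that joins a nuclear pore protein to a histone methyltransferase. The other group was mock-transduced and is labelled with the retroviral vector MSCVpuro. Each group had 3 samples, and each sample was hybridised to its own Affymetrix Mouse Genome 430 2.0 array. All 6 came from the same line, of strain C3H/HeJ, grown from marrow of a mouse infected with Friend leukaemia virus. No further treatment or time is given in the labels, nor whether the transduced cells were a pool or a clone.

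Of 8 myeloid progenitor markers, Ptprc, Spi1, Mpo, Cebpa and Csf2rb were called Present on all 6 arrays, Elane on the mock arrays only, and Kit and Cd34 on none. Of 17 measured markers of fibroblasts, T cells, B cells and epithelium, 0 were called Present on all 3 arrays of either group. Between 47.6% and 48.2% of probe sets were Present on Nup98::Nsd1 arrays, against 45.1% to 45.9% on mock arrays. The 3' probe set of the Actb control over the 5' one, a ratio that goes up when RNA is degraded or labelled short, gave 1.47 ± 0.026 on Nup98::Nsd1 arrays and 1.18 ± 0.030 on mock arrays (SD, n = 3 each). This ratio differed between the groups along with every change given here, and its part in them was not tested. No label says that the samples came from separate cultures, so the p-values reflect the spread of these arrays alone, which may be technical. Precision is limited by the number of arrays, and in bulk RNA less RNA per cell and fewer cells with it cannot be told apart.

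Each synthetase activates its amino acid with ATP and loads it on the matching tRNA, which the ribosome then reads. Mammalian cells hold separate nuclear genes for most cytosolic and mitochondrial enzymes, whereas Gars and Kars each supply both compartments from 1 gene. The enzymes fall into class I and class II by the fold of the catalytic domain, and several cytosolic ones are held in the multi-synthetase complex by the scaffolds Aimp1, Aimp2 and Eef1e1. When eIF2 alpha is phosphorylated, as in amino acid shortage, the transcription factor ATF4 is translated and, with CHOP (gene Ddit3), raises the transcription of many cytosolic synthetase genes in mouse fibroblasts.

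The signal used is the MAS5 signal, an intensity scaled per array by the authors. Tests were run on probe sets with a Present call on every array of 1 or both groups, and a gene is given by its brightest tested probe set unless stated otherwise. Groups were compared on the log2 scale with limma, with p-values adjusted over 20494 probe sets, and fold changes are Nup98::Nsd1 over mock. Of the 36 synthetase genes 34 were tested, 19 cytosolic and 15 mitochondrial. The untested measured gene was Aars2, the mitochondrial enzyme for alanine, Present on 2 Nup98::Nsd1 arrays and on 1 mock array, at signals of 524, 517 and 639 in Nup98::Nsd1 cells and 380, 501 and 428 in mock cells.

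Cytosolic synthetase genes were mostly higher in Nup98::Nsd1 cells. Of 19 tested, 14 rose and 4 fell, and Rars, for arginine, did not pass (log2 fold change -0.033, adjusted p = 0.508). Of 15 tested mitochondrial synthetase genes, 3 rose, 3 fell and 9 did not pass. Over all 9641 tested genes, 42.9% rose and 29.5% fell, 72.3% in all, so 3 of 15 is a smaller share of rises than in the background. The median log2 fold change was 0.33 for cytosolic genes and 0.045 for mitochondrial genes, against 0.12 for all tested genes. Arrays can be scaled in other ways, and with each array centred on the median of tested probe sets, the median change of probe sets was -0.018, against 0.15 as deposited. The cytosolic counts were then 10 higher and 5 lower and the mitochondrial counts 1 and 5, where 31.9% of all tested genes were higher and 39.1% lower. The hybridization controls are the control transcripts BioB, BioC, BioDn and CreX, added at hybridization rather than to the RNA. With scaling to them the median change of probe sets became -0.25. The counts were 6 and 9 for cytosolic and 1 and 10 for mitochondrial genes, where 20.1% of all tested genes were higher and 53.4% lower.

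**Figure D1:**
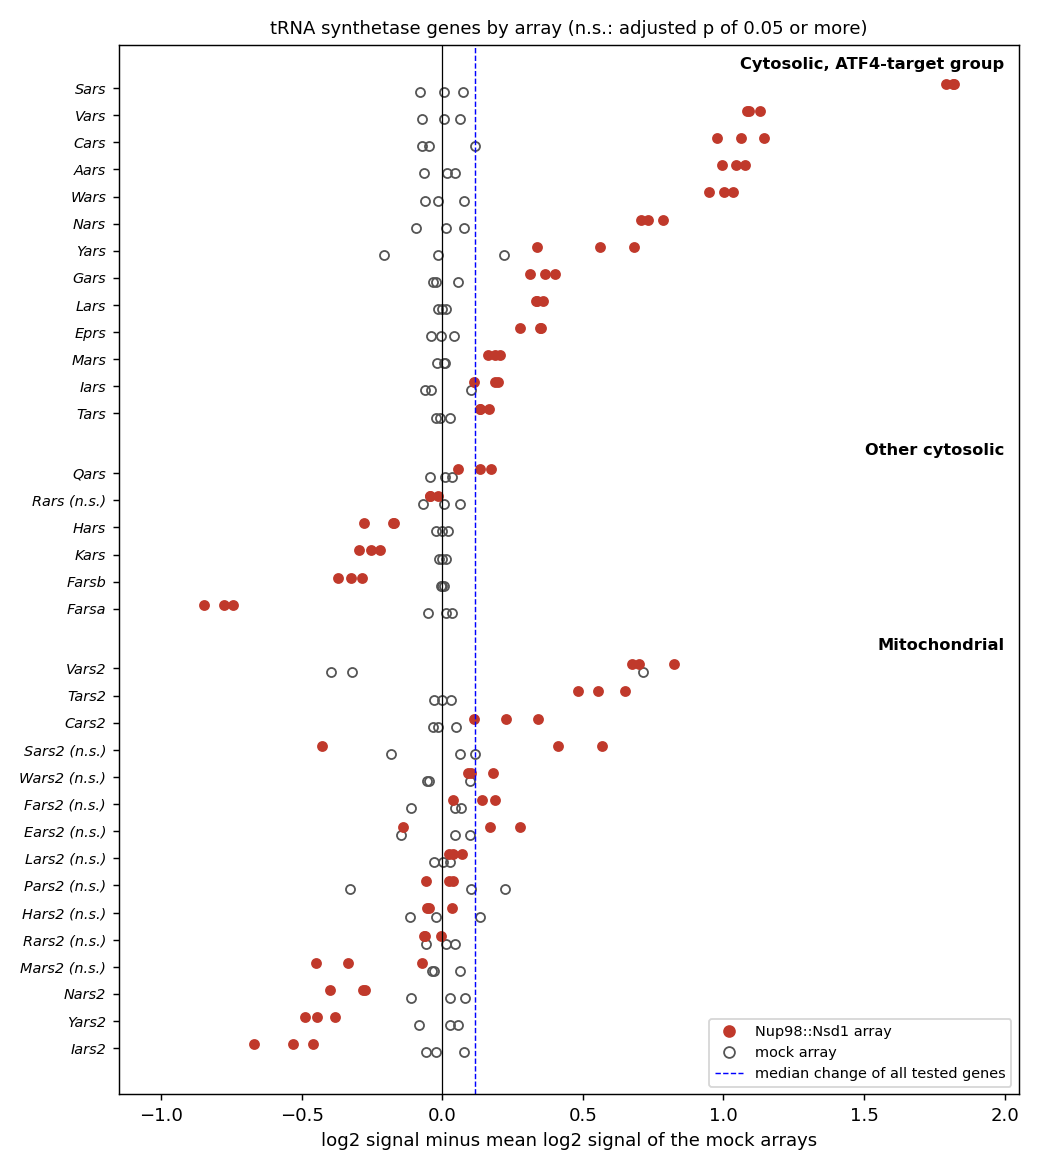
Log2 signal of each tested synthetase gene on each array, minus the mean of its 3 mock arrays, on the horizontal axis (filled red, Nup98::Nsd1; open grey, mock), with genes ordered by fold change within 3 groups. All 13 genes of the ATF4-target group lie to the right of the mock arrays, Sars farthest at a log2 fold change of 1.81, while Farsa, Farsb, Kars and Hars lie to the left; the dashed line is the median change of all tested genes, 0.12.

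Among the synthetases the largest change was in Sars, which encodes the cytosolic enzyme for serine. Its signal was 11375, 11181 and 11402 in Nup98::Nsd1 cells, against 3058, 3244 and 3397 in mock cells. The arrays within a group lay close together and the groups were far apart, 3.50-fold (log2 fold change 1.81, SE 0.045, adjusted p = 8.84e-11). A second probe set for Sars gave 2.00 on the log2 scale, and over all settings tried the log2 fold change of Sars lay between 1.41 and 1.91. By fold change Sars ranked 210 of 9641 tested genes.

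A further 3 cytosolic genes rose at least 2-fold, and Wars came just below that. Vars, for valine, had signals of 2932, 2919 and 3012 in Nup98::Nsd1 cells and 1437, 1384 and 1310 in mock cells, 2.15-fold higher (log2 fold change 1.10, SE 0.050, adjusted p = 5.87e-09). Cars, for cysteine, had 1938, 2058 and 2178 in Nup98::Nsd1 cells and 938, 953 and 1068 in mock cells, 2.09-fold higher (log2 fold change 1.06, SE 0.066, adjusted p = 6.85e-08). Aars, for alanine, had 9605, 9271 and 9808 in Nup98::Nsd1 cells and 4452, 4707 and 4801 in mock cells, 2.06-fold higher (log2 fold change 1.04, SE 0.043, adjusted p = 3.26e-09). In each of these genes the lowest Nup98::Nsd1 array stood well above the highest mock array. A second probe set for Aars was called higher too, at 0.90 on the log2 scale, below 2-fold. Wars encodes the enzyme for tryptophan, known in human cells to be induced by interferon gamma. It had 3098, 3289 and 3212 in Nup98::Nsd1 cells and 1588, 1537 and 1694 in mock cells, 1.99-fold higher (log2 fold change 0.99, adjusted p = 1.49e-08). The other tested Wars probe sets were called higher too, at 1.01, 0.61 and 0.55. Those at 0.61 and 0.55 did not pass with scaling to the hybridization controls. At the brightest probe sets, rises of at least 2-fold were found in 4 of 19 cytosolic and 0 of 15 mitochondrial genes, against 9.53% of all tested genes. Nars, for asparagine, had 12524, 12326 and 13014 in Nup98::Nsd1 cells and 7075, 7627 and 7975 in mock cells, 1.67-fold higher (log2 fold change 0.74, adjusted p = 1.01e-07). Its second probe set, with 10328, 10037 and 10754 in Nup98::Nsd1 cells and 8414, 8364 and 9003 in mock cells, gave 0.27 (adjusted p = 0.000187), did not pass with median centring (0.10) and was called lower with scaling to the hybridization controls (-0.13).

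Smaller rises were measured in the remaining genes. Yars, for tyrosine, varied most between replicates, with 1880, 2195 and 2388 in Nup98::Nsd1 cells against 1288, 1475 and 1735 in mock cells (log2 fold change 0.53, adjusted p = 0.000852). The log2 fold change was 0.36 for Gars (glycine), 0.19 for Mars (methionine) and 0.15 for Tars (threonine), all past the threshold. Yars did not pass with scaling to the hybridization controls, at 0.13. Gars, Lars and Eprs were below 0 with scaling to the hybridization controls, at -0.040, -0.057 and -0.073, and did not pass there. Mars, Tars, Iars and Qars had rises of 0.12 to 0.19 that lay near the median change of all tested genes. With median centring none of these 4 passed, and with scaling to the hybridization controls each was called lower, so their direction as deposited rests on the scaling.

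Falls were found in 4 cytosolic genes. The fall was largest in Farsa, the catalytic alpha subunit of the enzyme for phenylalanine, with 2560, 2386 and 2507 in Nup98::Nsd1 cells and 4148, 4396 and 4333 in mock cells, 1.73-fold lower (log2 fold change -0.79, SE 0.046, adjusted p = 3.77e-08). The gene of its partner subunit, Farsb, had 2970, 3062 and 3146 in Nup98::Nsd1 cells and 3853, 3822 and 3838 in mock cells, 1.25-fold lower (log2 fold change -0.33, adjusted p = 2.45e-05). At these probe sets the genes of both subunits of this heterotetramer were lower in Nup98::Nsd1 cells, without overlap of the groups. Another Farsb probe set, at -0.13, was not called and its groups overlapped, while the remaining tested one was called lower (-0.46). The other tested Farsa probe sets, at 0.25 and 0.15, were not called. Kars, for lysine, had 4938, 4798 and 5051 in Nup98::Nsd1 cells and 5839, 5893 and 5939 in mock cells (log2 fold change -0.26, adjusted p = 0.000107). Hars, for histidine, had 4490, 4470 and 4160 in Nup98::Nsd1 cells and 5123, 5052 and 4976 in mock cells (log2 fold change -0.21, adjusted p = 0.00113). Hars did not pass after quantile normalization, at -0.071, and the mean of the 3 tested Farsa probe sets did not pass either (-0.13, adjusted p = 0.109).

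**Figure D2:**
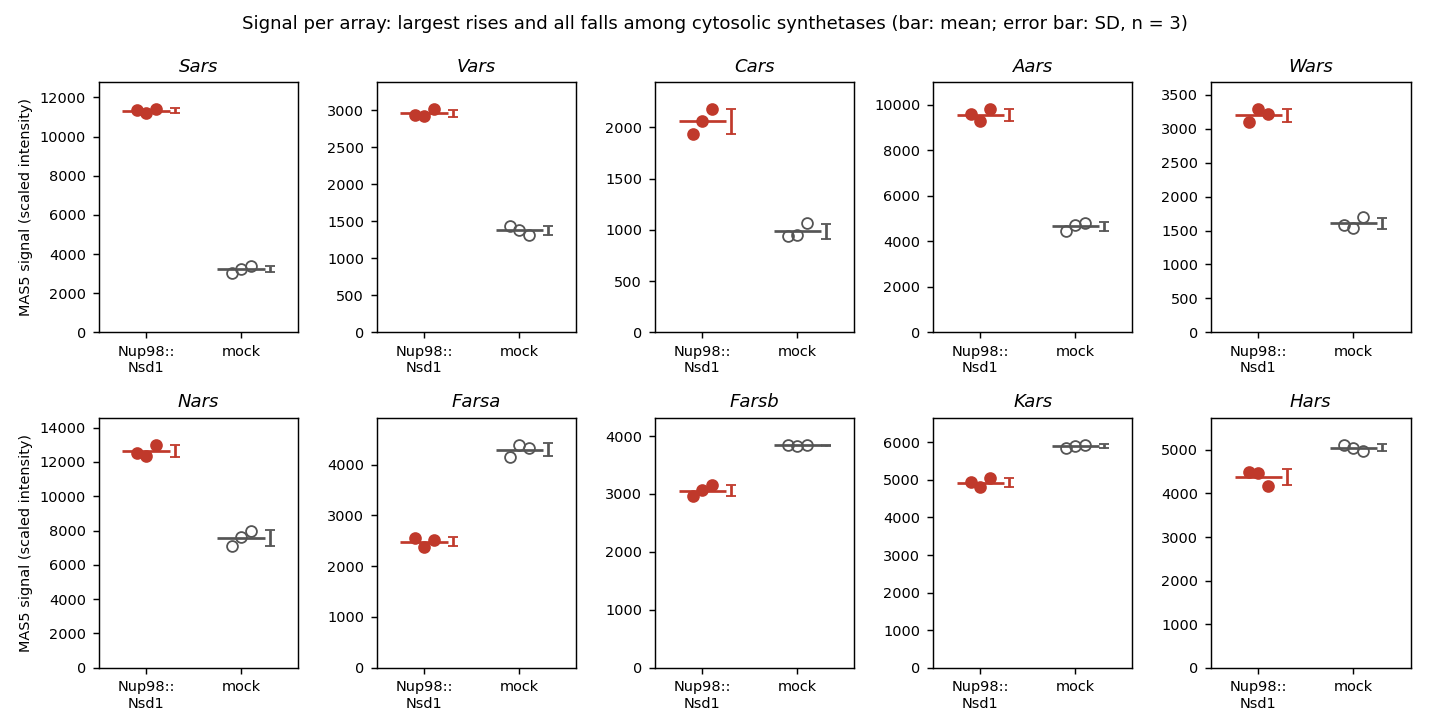
MAS5 signal (scaled intensity, axis from 0) on each array for the 6 cytosolic genes with the largest rises and the 4 that fell, Nup98::Nsd1 on the left and mock on the right of each panel; horizontal bars are means and error bars SD (n = 3 each). In none of the panels do the groups overlap, and Sars stands at 11319 ± 121 in Nup98::Nsd1 cells and at 3233 ± 170 in mock cells.

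The cytosolic genes were also split by whether they are known as targets of ATF4 or CHOP in mouse cells. The list of targets was taken from general knowledge of the integrated stress response, with earlier results of these data known. The split therefore describes these genes, as do the distances and motif counts that use it below, and tests no difference between the groups. The list holds Aars, Cars, Eprs, Gars, Iars, Lars, Mars, Nars, Sars, Tars, Vars, Wars and Yars. Of these 13 genes, 13 rose and 0 fell as deposited, and of 6 other tested cytosolic genes 1 rose and 4 fell, where 42.9% of tested genes rose and 29.5% fell. With median centring the counts were 10 higher and 0 lower in the ATF4-target group and 0 and 5 among the others, and with hybridization control scaling 6 and 3, against 0 and 6. The median log2 fold change was 0.53 in the ATF4-target group and -0.23 among the other cytosolic genes, and without Sars the median of the group was 0.44. Groups did not overlap, with Nup98::Nsd1 above, for 13 of 13 genes of the group, against 44.5% of all tested genes, and with Nup98::Nsd1 below for 4 of the 6 others, against 30.5%. At the level of probe sets, 22 of 23 tested in the ATF4-target group were called higher and 0 lower, and of 14 for the other cytosolic genes 4 were called higher and 6 lower. Of 23 probe sets of mitochondrial genes 5 were called higher and 4 lower. Over all tested probe sets 69.9% were called, 42.3% higher and 27.6% lower.

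The distance between these gene groups within an array is not altered when all its signals are scaled by a constant. The median of the ATF4-target group minus that of the other cytosolic genes, each gene relative to its mock mean on the log2 scale, was 0.61, 0.80 and 0.93 on the Nup98::Nsd1 arrays and 0.0062, -0.018 and 0.035 on the mock arrays. The difference from the mitochondrial genes was 0.38, 0.54 and 0.64 on the Nup98::Nsd1 arrays and -0.052, -0.017 and 0.068 on the mock arrays. On each Nup98::Nsd1 array, then, the ATF4-target group stood above both other groups by more than on any mock array. After quantile normalization, which is no scaling by a constant, the median log2 fold change was 0.55 in the ATF4-target group, -0.091 among the other cytosolic genes and -0.10 among the mitochondrial genes, distances of 0.64 and 0.65, against 0.76 and 0.48 as deposited.

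Promoters of the synthetases, 250 bases before to 50 after the annotated start in RefSeq (GRCm38.p6), were searched for TGATGNAA, the core of the C/EBP-ATF response element that ATF4 binds with C/EBP partners, on both strands. A promoter was on hand for 27 genes. The letters occurred in 5 of 8 promoters of the ATF4-target group, in 0 of 5 of the other cytosolic genes and in 0 of 14 mitochondrial genes, and 3.97% of all 32851 promoters hold them. The stricter TGATGCAA, contained in the first motif, occurred in 4 of the 8 and in 0.89% of all promoters. The 40-base windows around the matches are shown in the direction of the gene, with the match in capitals, because the letters recur in this group of genes. A motif on the reverse strand appears here as its reverse complement, as in all but Yars.
Aars, chr8:111033714-111033753, plus strand: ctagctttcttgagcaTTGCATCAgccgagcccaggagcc
Aars, chr8:111033835-111033874, plus strand: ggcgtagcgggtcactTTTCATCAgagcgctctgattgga
Gars, chr6:55037955-55037994, plus strand: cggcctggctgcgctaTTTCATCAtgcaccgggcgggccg
Iars, chr13:49682121-49682160, plus strand: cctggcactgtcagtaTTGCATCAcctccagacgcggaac
Tars, chr15:11399650-11399689, minus strand: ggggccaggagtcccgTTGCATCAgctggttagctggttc
Yars, chr4:129189890-129189929, plus strand: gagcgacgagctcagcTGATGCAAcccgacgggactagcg
The matches began 112 bases before the start and at transcribed base 10 in Aars, 30 before in Gars, at base 8 in Iars, 15 before in Tars and at base 4 in Yars. Of the 5 genes, Aars and Yars had log2 fold changes of 1.04 and 0.53, and Gars, Iars and Tars of 0.36, 0.17 and 0.15. With scaling to the hybridization controls Aars was still called higher (0.64), while Yars, Gars, Iars and Tars lost or turned their calls. Of the 3 searched promoters of the group without a match, Sars had a log2 fold change of 1.81, Eprs of 0.33 and Mars of 0.19, and the promoters of the other 5 genes were not searched here.

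Sars, with the largest rise, has neither motif in this window. Its promoter is shown for comparison with the windows with a match, with the first transcribed base in capitals.
Sars, chr3:108445210-108445509, minus strand: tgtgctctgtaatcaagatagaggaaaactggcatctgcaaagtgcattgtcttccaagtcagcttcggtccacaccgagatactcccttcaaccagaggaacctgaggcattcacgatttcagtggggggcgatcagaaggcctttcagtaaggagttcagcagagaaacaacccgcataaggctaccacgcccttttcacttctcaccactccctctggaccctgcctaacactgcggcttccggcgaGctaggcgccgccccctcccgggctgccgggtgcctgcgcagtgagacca
Several genes next to Sars on chromosome 3 also rose. Neighbours, the 5 protein-coding genes on each side in RefSeq order, were examined for all 36 genes, and those of Sars, Mars and Vars are named here after their values were seen. Psrc1, which encodes a spindle protein, lies 2 genes away and had signals of 2569, 2557 and 2498 in Nup98::Nsd1 cells and of 11.2, 11.8 and 7.05, with no Present call, in mock cells. Sort1, the sorting receptor sortilin, had 808 ± 50.1 in Nup98::Nsd1 cells and 132 ± 25.7, again with no Present call, in mock cells (SD, n = 3 each). Psma5, on the same side beyond Sort1, was called lower, with a log2 fold change of -0.19. On the other side, Tmem167b, Taf13 and Wdr47 were called higher, with log2 fold changes of 0.52, 0.23 and 0.38. With median centring Taf13 and Wdr47 did not pass (0.062 and 0.21). With scaling to the hybridization controls Tmem167b, Taf13 and Wdr47 did not pass (0.12, -0.17 and -0.021). Psrc1 and Sort1 were still called higher there, at 7.62 and 2.23. Of 6 tested neighbours 5 were called higher as deposited, where 42.9% of all tested genes were. The part of this position on the chromosome in the rise of Sars was not tested.

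Mars also has a strongly changed neighbour, since Ddit3, the CHOP gene, lies next to it on chromosome 10. Ddit3 had a log2 fold change of 3.99 and Mars of 0.19, and 7 of 7 tested neighbours of Mars were called higher as deposited. Over all tested genes 42.9% were called higher and 29.5% lower. Counts varied among the other synthetases, with 6 of 7 tested neighbours higher for Yars2, 7 of 9 for Tars2 and 0 of 3 for Gars. Of 5 tested neighbours of Vars, 3 were called higher and 1 lower, among them Sapcd1 (2.13), Msh5 (1.80), a MutS homologue that acts in meiosis, and Lsm2 (-1.26), a subunit of a complex that acts on RNA.

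Enzymes of the multi-synthetase complex had small changes at their brightest probe sets. Of 7 tested genes of complex enzymes 5 rose and 1 fell, with a median log2 fold change of 0.17, and the 12 cytosolic enzymes outside it, of which 9 rose and 3 fell, had a median of 0.63. Over all tested genes 42.9% rose and 29.5% fell. With median centring 2 of the complex enzymes were higher and 2 lower, and with scaling to the hybridization controls 0 were higher and 5 lower, beside 6 and 4 of the 12 enzymes outside the complex. Lars, for leucine, had 6822, 6704 and 6722 in Nup98::Nsd1 cells and 5330, 5270 and 5381 in mock cells (log2 fold change 0.34, adjusted p = 6.81e-06). Eprs, the fused enzyme for glutamate and proline, had 4718, 4957 and 4961 in Nup98::Nsd1 cells and 3881, 3788 and 4003 in mock cells at its brightest probe set (log2 fold change 0.33, adjusted p = 3.08e-05). The other 3 Eprs probe sets were called higher too, at 0.78, 0.79 and 1.86, so the brightest gave the smallest change. Mars had 4714, 4660 and 4587 in Nup98::Nsd1 cells and 4113, 4046 and 4120 in mock cells (adjusted p = 0.0011). Iars, for isoleucine, had 6230, 6181 and 5871 in Nup98::Nsd1 cells and 5817, 5280 and 5197 in mock cells (log2 fold change 0.17, adjusted p = 0.0106). In Iars the lowest Nup98::Nsd1 array lay just above the highest mock array, and its second probe set was not called (0.054). Qars, for glutamine, had 3162, 2993 and 3250 in Nup98::Nsd1 cells and 2791, 2948 and 2897 in mock cells (log2 fold change 0.12, adjusted p = 0.0353). Its call was lost without Nup98::Nsd1 replicate 1 or 3 or mock replicate 1 or 3 (adjusted p = 0.0939, 0.117, 0.106 and 0.0545), although its other 3 probe sets were called higher, at 0.50 to 0.70. Rars had 5265, 5368 and 5268 in Nup98::Nsd1 cells and 5178, 5443 and 5662 in mock cells, and the groups overlapped. After quantile normalization Rars was called higher (0.11), and with the other 3 scalings lower (-0.20 to -0.43).

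Of 3 non-enzymatic scaffolds of the complex 2 fell and 0 rose, where 29.5% of all tested genes fell and 42.9% rose. Aimp2 had a signal of 1789 ± 35.9 in Nup98::Nsd1 cells and 3575 ± 111 in mock cells, 2.00-fold lower (adjusted p = 5.79e-09). Eef1e1 had 2860 ± 60.6 in Nup98::Nsd1 cells and 4711 ± 75.2 in mock cells, 1.65-fold lower (log2 fold change -0.72, adjusted p = 3.15e-08; SD, n = 3 each). Aimp1 stood at 0.065 and did not pass (adjusted p = 0.53). With median centring Aimp2 stood at -1.17 and Eef1e1 at -0.89, both called lower.

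By structural class, 8 of 9 class I cytosolic genes rose and 0 fell, and of 9 class II genes 5 rose and 4 fell. Their median log2 fold changes were 0.34 and 0.15, and Eprs, which joins an enzyme of each class, was left out of this count. Over all tested genes 42.9% rose and 29.5% fell. With median centring the counts were 5 higher and 1 lower for class I, and 4 and 4 for class II. With scaling to the hybridization controls they were 3 and 4 for class I and 3 and 5 for class II. The classes thus differed in the count of falls as deposited and with median centring, but little with scaling to the hybridization controls. Of 9 mitochondrial class I genes 2 rose and 2 fell, and of 6 of class II 1 rose and 1 fell.

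Among mitochondrial enzymes, Tars2, for threonine, had the clearest rise. Its signal was 3035, 2703 and 2838 in Nup98::Nsd1 cells and 1934, 1976 and 1894 in mock cells, 1.48-fold higher (log2 fold change 0.56, SE 0.052, adjusted p = 1.75e-06), with 0.61 at a second probe set. It was the only mitochondrial gene called higher under each of the 4 other scalings, at 0.16 to 0.62. Vars2, for valine, had 201, 184 and 181 in Nup98::Nsd1 cells and 186, 86.3 and 90.8 in mock cells (log2 fold change 0.73, adjusted p = 0.0245). The groups overlapped because mock replicate 1 stood apart from the other two, and without it the log2 fold change was 1.09. The call of Vars2 was lost without Nup98::Nsd1 replicate 1 or 2 or mock replicate 2 or 3 (adjusted p = 0.0705, 0.0526, 0.0998 and 0.0854). Cars2, for cysteine, had probe sets called in opposite directions. The brighter gave 749, 877 and 810 in Nup98::Nsd1 cells and 687, 677 and 716 in mock cells (log2 fold change 0.23, adjusted p = 0.0172). The other gave 512, 362 and 367 in Nup98::Nsd1 cells and 811, 771 and 769 in mock cells (log2 fold change -0.94, adjusted p = 2.76e-05). The call of the brighter was lost without Nup98::Nsd1 replicate 2 or mock replicate 2 (adjusted p = 0.073 and 0.0561) and under each other scaling, so no direction is given for Cars2. Without mock replicate 2, 1 mitochondrial gene was called higher in place of 3.

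The mitochondrial genes that fell were those for isoleucine, tyrosine and asparagine. Iars2 had 993, 903 and 1043 in Nup98::Nsd1 cells and 1380, 1515 and 1413 in mock cells, 1.47-fold lower (log2 fold change -0.55, SE 0.067, adjusted p = 1.71e-05). Yars2 had 891, 918 and 958 in Nup98::Nsd1 cells and 1300, 1272 and 1179 in mock cells, 1.36-fold lower (log2 fold change -0.44, adjusted p = 5.48e-05). Nars2 had 718, 720 and 662 in Nup98::Nsd1 cells and 890, 922 and 808 in mock cells, 1.25-fold lower (log2 fold change -0.32, adjusted p = 0.00214). In all 3 genes each Nup98::Nsd1 array lay below each mock array, and all 3 were called lower under each other scaling. A second probe set was not called for Iars2 (0.35) or Yars2 (-0.052), and the mean over the probe sets of Iars2 did not pass (-0.10, adjusted p = 0.539).

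The other 9 mitochondrial genes, Ears2, Fars2, Hars2, Lars2, Mars2, Pars2, Rars2, Sars2 and Wars2, did not pass, with log2 fold changes of -0.28 to 0.18. Mars2 was dim, at 89.0, 96.2 and 116 in Nup98::Nsd1 cells and 118, 127 and 119 in mock cells (log2 fold change -0.28, SE 0.18), and it was called lower under each other scaling (-0.45 to -0.71). Sars2, for serine, had 424, 213 and 380 in Nup98::Nsd1 cells and 299, 253 and 310 in mock cells. Nup98::Nsd1 replicate 2 stood low, and without it Sars2 passed (log2 fold change 0.49, adjusted p = 0.00673). A second probe set of Wars2 was called higher (0.61, adjusted p = 0.00059), and its brightest was not (0.12, adjusted p = 0.249).

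**Figure D3:**
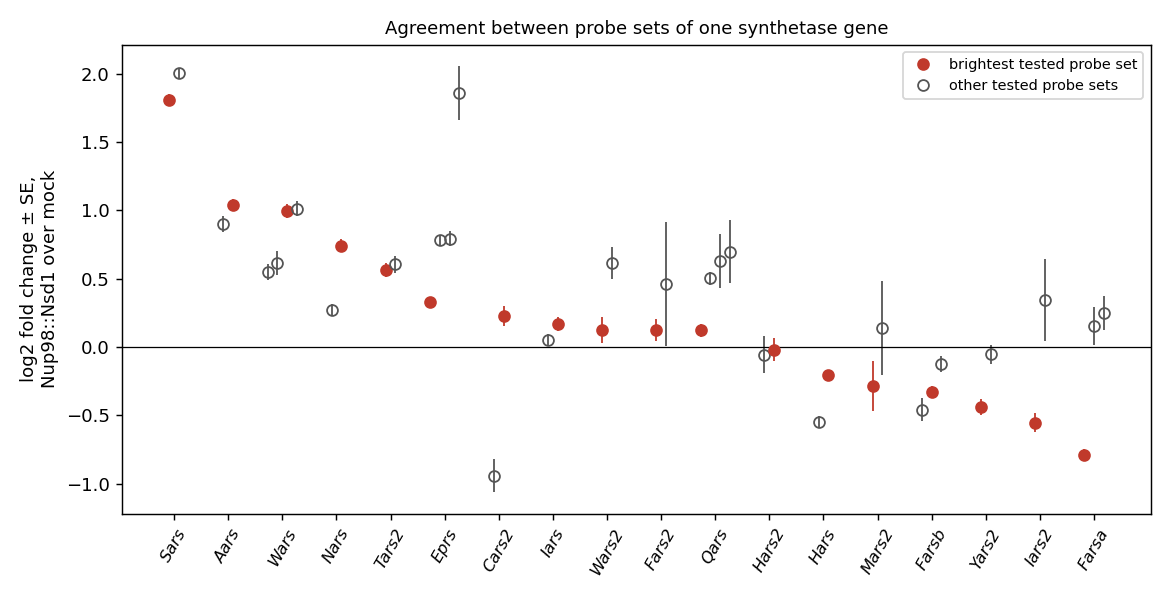
Log2 fold change with its SE (vertical axis, Nup98::Nsd1 over mock) of each tested probe set of the 18 synthetase genes that have several; the brightest probe set is filled red and the others open grey. Probe sets of 11 of these genes shared 1 call, while those of Cars2 were called in opposite directions, at 0.23 and -0.94.

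For 15 combinations of a cytosolic and a mitochondrial gene of the same amino acid, the difference of their log2 signals was taken within each array, a measure that no scaling of the array by a constant can alter. The cytosolic gene gained on its mitochondrial partner in 9 of the 15 without overlap of the arrays, lost in 3, and overlapped in 3. The share among other pairs of genes was not computed. Taken singly, 44.5% of all tested genes did not overlap with Nup98::Nsd1 above, and 30.5% with Nup98::Nsd1 below. Eprs served for both proline and glutamate, so the combinations are not independent. For cysteine the brighter Cars2 probe set was used, although no direction is given for Cars2. Each exact two-sided permutation test of arrays without overlap gave p = 0.1, the smallest that 20 assignments of 3 arrays against 3 allow, so none can reach 0.05. The largest gain was for serine, where Sars minus Sars2 changed by 1.63 on the log2 scale (SE 0.32), with the Nup98::Nsd1 arrays at 1.25 to 2.22 and the mock arrays at -0.14 to 0.19 around the mock mean. Asparagine followed, with 1.06 (SE 0.11) for the brightest probe set of Nars minus Nars2, then tyrosine, with 0.97 (SE 0.18) for Yars minus Yars2, and tryptophan, with 0.87 (SE 0.057) for Wars minus Wars2. For asparagine and tyrosine the cytosolic gene rose and the mitochondrial gene fell. The order was turned for phenylalanine, where Farsa minus Fars2 changed by -0.91 (SE 0.036), for threonine, at -0.42 (SE 0.041), and for histidine, at -0.19 (SE 0.069). The value for phenylalanine rests on the brightest Farsa probe set. The other tested Farsa probe sets stood at 0.25 and 0.15 and were not called. Arginine showed the smallest difference, 0.0100 (SE 0.071), with overlapping arrays (exact permutation p = 0.9).

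**Figure D4:**
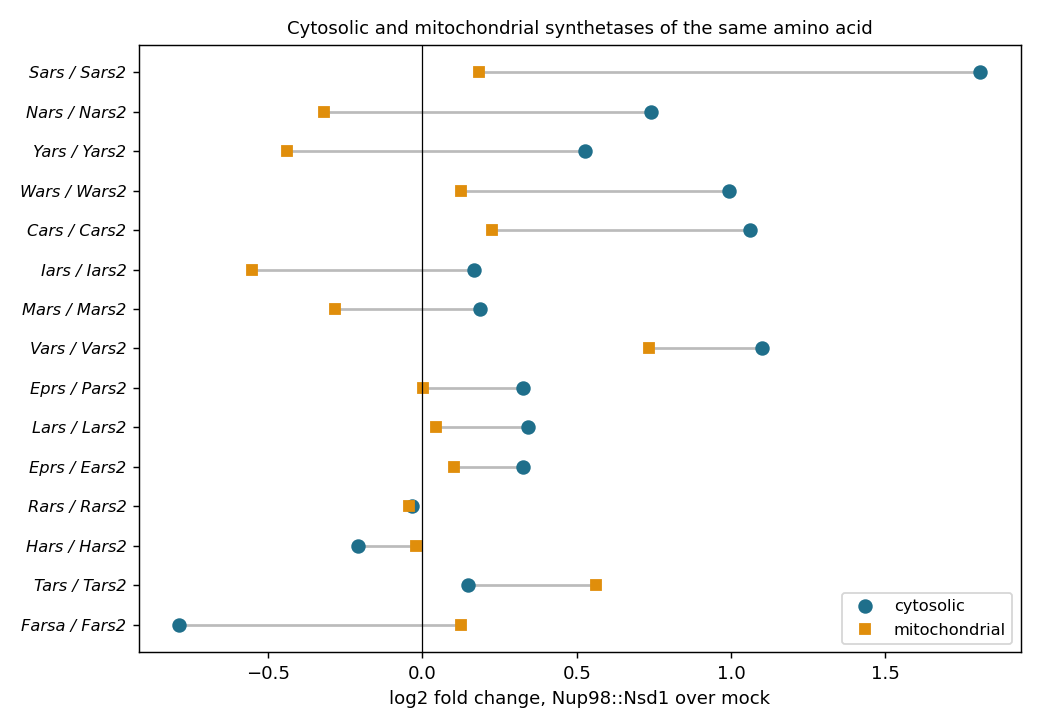
Log2 fold change (horizontal axis, Nup98::Nsd1 over mock) of the cytosolic gene (circle) and the mitochondrial gene (square) of the same amino acid, ordered by the difference. Each gene is given by its brightest tested probe set. Serine, at the top, has 1.81 for Sars and 0.18 for Sars2, while phenylalanine, at the bottom, has -0.79 for Farsa and 0.12 for Fars2.

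Other genes of the integrated stress response were mostly higher in Nup98::Nsd1 cells. Of 20 tested genes 18 rose and 1 fell, with a median log2 fold change of 0.74. The counts were the same with median centring and 16 and 1 with scaling to the hybridization controls. Among all tested genes 42.9% rose and 29.5% fell as deposited. These shares were 31.9% and 39.1% with median centring, and 20.1% and 53.4% with scaling to the hybridization controls. Ddit3 had a signal of 6752 ± 85.1 in Nup98::Nsd1 cells and 425 ± 24.6 in mock cells, 15.9-fold higher (adjusted p = 1.73e-12). Trib3, a pseudokinase that CHOP induces, had 6685 ± 231 in Nup98::Nsd1 cells and 434 ± 25.1 in mock cells, 15.4-fold higher. Nupr1, a stress-induced chromatin protein, was 12.8-fold higher and Cebpg, a C/EBP partner of ATF4, 3.22-fold higher (adjusted p = 1.73e-12 and 1.56e-10). Psat1, an enzyme of serine synthesis, was the gene that fell (log2 fold change -0.24), and Chac1 did not pass. Of 6 tested eIF2 alpha kinases and phosphatase subunits 2 rose and 2 fell, near the shares of all tested genes. With scaling to the hybridization controls 1 was higher and 4 lower, again near those shares. Ppp1r15a, the stress-induced phosphatase subunit, was 4.95-fold higher, and the kinase genes Eif2ak2 and Eif2ak1 stood at 0.47 and -0.31 on the log2 scale, both called. The kinases Eif2ak3 and Eif2ak4, which respond to endoplasmic reticulum stress and to uncharged tRNA, did not pass, at 0.086 and 0.14.

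Genes that act on tRNA before or after charging were mostly lower in Nup98::Nsd1 cells. Of 14 tested genes of tRNA processing, export and repair, 9 fell and 3 rose, with a median log2 fold change of -0.46. Among all tested genes 29.5% fell and 42.9% rose. With scaling to the hybridization controls 11 of the list were lower and 0 higher, where 53.4% of all tested genes were lower and 20.1% higher. Nsun2, a tRNA cytosine methyltransferase, had 4559 ± 80.4 in Nup98::Nsd1 cells and 8225 ± 133 in mock cells, 1.80-fold lower (adjusted p = 5.64e-09). Wdr4, a subunit of the tRNA guanine methyltransferase, was 1.98-fold lower (adjusted p = 2.07e-07), Clp1, an RNA kinase, 1.94-fold lower and Rpp30, a subunit of RNase P, 1.49-fold lower. The genes that rose were Rtcb, Trmt1 and Xpot. Rtcb and Trmt1 stood at 0.47 and 0.39 and were still called higher with median centring (0.30 and 0.22). With scaling to the hybridization controls they did not pass (0.068 and -0.012). Xpot, the exportin for tRNA, stood at 0.20 and was called higher as deposited and lower with scaling to the hybridization controls (-0.20). Of 4 tested genes of tRNA deacylation and proofreading, 3 fell and 1 rose. Dtd1, the D-aminoacyl-tRNA deacylase, fell by 0.58, Aarsd1, which edits mischarged alanine tRNA, by 0.50 and Ptrhd1 by 0.31 on the log2 scale, while Prorsd1 stood at 0.36. Of 8 tested relatives and mitochondrial charging enzymes, 2 fell and 1 rose: beside Aarsd1, Mtfmt, which formylates the mitochondrial initiator, fell by 0.45, and Gatc, of the mitochondrial amidotransferase, rose by 0.36 as deposited and stood at -0.043 with scaling to the hybridization controls.

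Factors of translation were listed for each compartment. Of 5 tested cytosolic elongation factors 4 rose and 1 fell, where 42.9% of all tested genes rose and 29.5% fell. Eef2, the translocase, stood at 0.56 on the log2 scale, Eef1b2 at 0.30, Eef1a1, which delivers the tRNA, at 0.24, and Eef1d at -0.19. Eif5a, which helps ribosomes past stalling residues, stood at 0.15. With scaling to the hybridization controls Eef1b2, Eef1a1 and Eif5a were called lower, at -0.097, -0.16 and -0.24. The count for the list became 1 higher and 4 lower, where 20.1% of all tested genes were higher and 53.4% lower. Of 8 tested mitochondrial translation factors 4 fell and 2 rose, and with scaling to the hybridization controls 7 were lower and 0 higher. Gfm1, the mitochondrial translocase, had 1209 ± 49.3 in Nup98::Nsd1 cells and 2551 ± 31.2 in mock cells, 2.11-fold lower (adjusted p = 6.67e-09), Tsfm fell by 0.55 and Gfm2 by 0.34 on the log2 scale, and the initiation factor Mtif2 stood at 0.45.

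**Figure D5:**
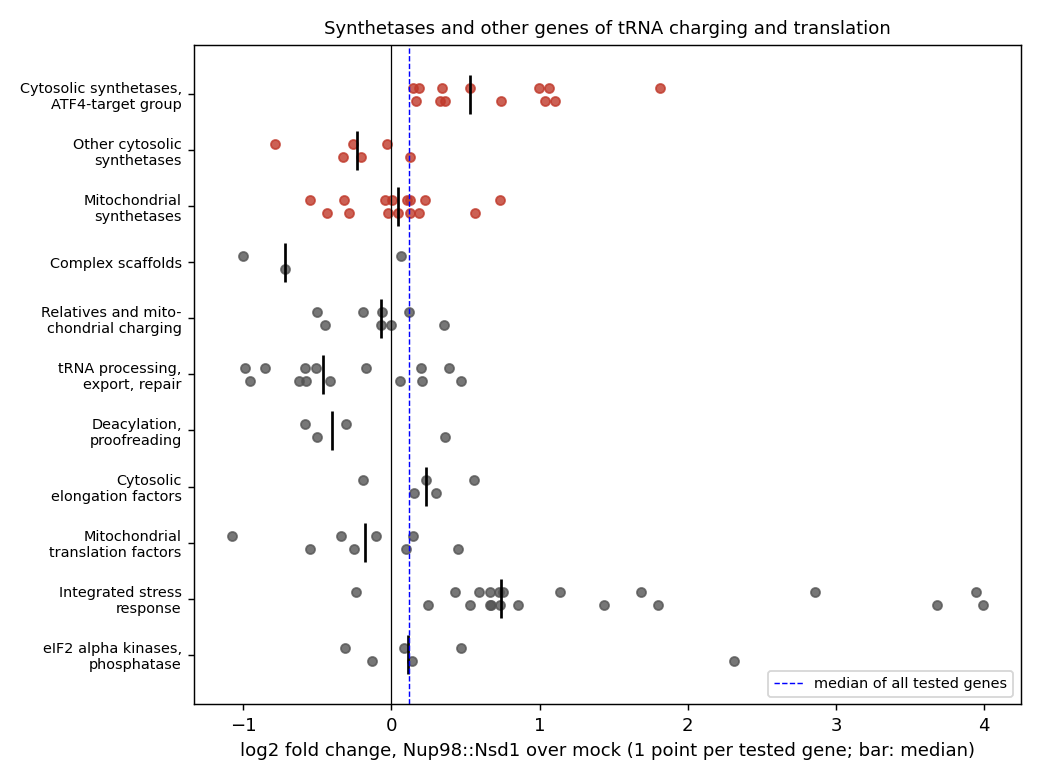
Log2 fold change (horizontal axis, Nup98::Nsd1 over mock) of each tested gene, by group; synthetases are red and other lists grey, black bars are medians, and the dashed line is the median of all tested genes, 0.12. The integrated stress response list, with a median of 0.74, and the ATF4-target synthetases, with 0.53, lie to the right, and the tRNA processing list, with -0.46, to the left.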

How the data were processed

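The authors deposited, per the file headers, a MAS5 signal for each of 45101 probe sets and array, a scaled intensity on a linear scale, with a MAS5 detection p-value and call (Present, Marginal or Absent). MAS5 is also named in the submitters' processing notes, and the sources used here give neither its version nor its scaling target. The authors' deposited series matrix repeated these intensity values (largest relative difference 5.0e-06).

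From these values, signals under 1 were set to 1 and taken to log2 without further scaling. The 64 control probe sets were left out, and tests covered 20494 probe sets with a Present call on every array of 1 or both groups. Genes came from the platform annotation of probe sets with 1 symbol, matched by Entrez identifier to a RefSeq table (GRCm38.p6). Each of 9641 genes was represented by its brightest tested probe set, by mean log2 signal over the 6 arrays. Another probe set, annotated to a synthetase and to a second gene, was not used.

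The comparison used limma 3.58.1 (R 4.3.3), with moderated tests and an intensity trend, and Benjamini-Hochberg adjustment over all tested probe sets, at a threshold of 0.05. The procedure was tested on simulated data. Differences within arrays were compared by exact permutation. Signals of the 8 largest changes in each direction, of complex members, of members turned by a scaling among the first 8 and of genes with opposite probe sets are given by array, and up to 4 genes by smallest p in each list. Some further genes of the lists are named beside these. Promoters came from RefSeq and were searched in Python 3.11.15. The members, the lists and the ATF4-target group were chosen with earlier results of these data known. Alternatives were pseudocounts of 16 and 64, other detection filters, 4 other scalings, the matrix of the series, no trend, array weights, the mean of probe sets, a block for the replicate number and leaving out each array. No set was tested for enrichment.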

Additional observations from a re-analysis of the deposited data

How the results depend on the processing

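Counts of synthetase genes depended mainly on scaling. Mitochondrial genes called higher, 3 as deposited, numbered 1 with quantile normalization and with each of the 3 other scalings. Those called lower, 3 as deposited, numbered 7 with centring on the 75th percentile, 5 with centring on the median, and 10 when scaled to the hybridization controls. With hybridization control scaling, 6 cytosolic genes were higher (14 as deposited), 9 lower (4), and 6 of the ATF4-target group higher (13). Leaving out each array gave 13 to 14 cytosolic genes higher, 4 lower, 1 to 3 mitochondrial genes higher, 3 lower and 13 of the ATF4-target group higher. Turns of direction are listed here for genes called as deposited or under the other scaling. Changes of sign without a call are left out, such as Ears2 at 0.10 as deposited and -0.21 after quantile normalization. Directions turned for Rars after quantile normalization (0.11). With 75th percentile centring Iars stood at -0.029, Mars at -0.011, Qars at -0.073, Tars at -0.050 and Lars2 at -0.15, and with median centring Iars at -0.0018, Qars at -0.047 and Tars at -0.023. With hybridization control scaling Eprs stood at -0.073, Gars at -0.040, Iars at -0.23, Lars at -0.057, Mars at -0.21, Qars at -0.28, Tars at -0.25, Cars2 at -0.17, Fars2 at -0.28, Lars2 at -0.35, Pars2 at -0.40 and Wars2 at -0.27. The cause of these turns was not tested. With the mean of a gene's tested probe sets Cars2 stood at -0.36, and 8923 of 12350 features were called, 72.3%, in place of 14335 of 20494 probe sets, 69.9%. The 12350 features were 9641 genes and 2709 probe sets without 1 symbol. The cytosolic gene gained on its mitochondrial partner in 9 to 12 of 15 combinations over the settings tried. With the replicate number as a block, 14257 probe sets and the same 14, 4, 3 and 3 synthetase counts were called, and no synthetase gene changed its call. Deviations of same-numbered samples from their group means correlated at r = -0.017, -0.011 and 0.021, so no shared deviation was seen. This does not settle whether the numbers pair the samples, and the labels do not say. Pseudocounts, the matrix of the series, array weights and the filter of Present on all 6 arrays changed no synthetase call. Without the detection filter Qars and Vars2 lost theirs, and without an intensity trend Qars, Iars and Vars2. Dim probe sets, such as those of Mars2, Sars2 and Vars2, limit what can be said of the mitochondrial enzymes.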
